A study of Mus musculus with 12 samples.

Results

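GABA-A receptors are chloride channels opened by GABA, the main inhibitory transmitter of the brain, and each is assembled from alpha and beta subunits with a gamma or delta subunit. Which alpha subunit is built in sets where the receptor sits and how it responds to GABA and to drugs. In the cerebellar cortex, granule cells carry receptors with the alpha6 and delta subunits outside the synapse, which give a steady inhibition by GABA from Golgi cells, while the alpha2 subunit is known from Bergmann glia, the astrocytes that ensheath Purkinje cell synapses. Here, 7 subunit genes were followed across diets, matched by symbol among the 54752 genes counted: Gabra2, Gabra3, Gabra4, Gabra5 and Gabra6 (alpha subunits), Gabrb2 (a beta subunit) and Gabrd (the delta subunit). All 7 were found, and 6 had enough reads to be tested. Other subunits of the family are not analysed here.

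The libraries came from poly(A) RNA of the cerebellar cortex, dissected without the cerebellar nuclei, of 12 wild-type male mice aged 12 weeks, all F1 hybrids of C57BL6J and FVB. The 4 mice labelled ad libitum (AL) had free access to food. The 4 mice on dietary restriction (DR) received a reduced ration once a day. AL and DR mice were both killed early in the dark period, the DR mice without their last meal. A further 4 mice were on a ketogenic diet (KD), whose composition and feeding times are not given in the sources used here. No source ties mice to litters or cages, so each mouse was treated as independent, which could not be checked. The p-values set a difference between diets against the spread between these mice. For AL and DR, more mice were kept than sequenced, and RNA quality decided which were used.

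Between 31712084 and 40798644 reads were counted on genes per library, with medians of 37042341 on AL, 35448835 on DR and 37671175 on KD. Levels are given as CPM, the counts scaled to library size with TMM factors, and, where genes are compared with each other, as RPKM, which also divides by the kilobases of exon. The labelled tissue was checked against marker genes. All 7 markers of granule cells and all 7 of Purkinje cells were measured, with summed levels of at least 5291 and 5624 CPM in every library. The 5 markers of cerebellar nuclei and brainstem neurons summed to at most 1.35 CPM, and Hoxb3, Hoxb5 and Chat among them had a median of 0 CPM.

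The 7 subunits ranked in the same order in all 12 libraries, and the ranges of neighbours in that order did not overlap. Gabra6 stood first by a wide margin, at a mean of 354 RPKM over the 12 libraries (328 to 380.2 RPKM). Gabrd followed at 76.9 RPKM (70.3 to 83.9), lower by 4.06-fold to 5.28-fold within each library. The gene of the beta subunit, Gabrb2, had a mean level of 36.5 RPKM (30.98 to 38.2). The 3 most abundant subunits were thus alpha6, delta and beta2, which can form a receptor together, and alpha6 with delta is known for granule cells. Gabra2 was at 10.9 RPKM (8.26 to 13.3) and Gabra4 at 4.45 RPKM (3.48 to 5.71). Gabra3 had a mean of 2.67 RPKM (2.33 to 2.96). Gabra5, an alpha subunit known best from the hippocampus, was near the limit of detection at 0.054 RPKM, with 3 to 9 reads per library. Without division by length Gabrb2 moved ahead of Gabrd, at 232 and 221 CPM, and the ranges of this pair overlapped.

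**Figure D1:**
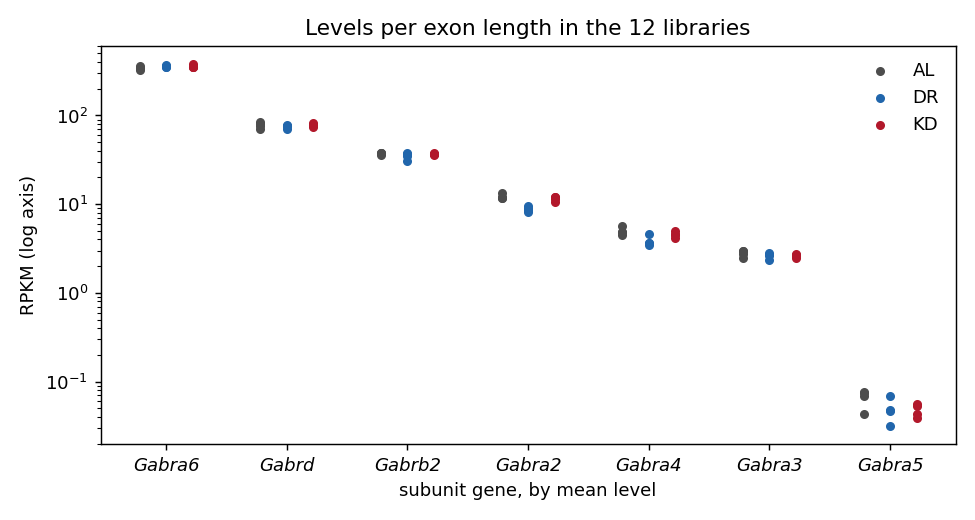
Level of each subunit gene per exon length (RPKM, log axis) in the 12 libraries, coloured by diet, with genes ordered by their mean. Points of neighbouring genes do not overlap, from Gabra6 at 328 to 380.2 RPKM down to Gabra5 below 0.0772 RPKM.

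As shares of the summed level of the 7 genes, Gabra6 made up 71.8% ± 1.16 on AL, 74.1% ± 1.29 on DR and 72.8% ± 0.866 on KD (SD, n = 4 each). Gabrd made up 16.2% ± 1.06, 15.5% ± 0.80 and 15.8% ± 0.651 on the same diets (SD, n = 4 each). The summed level itself was 479 ± 17.97 RPKM on AL, 486 ± 6.45 on DR and 492 ± 17.03 on KD (SD, n = 4 each), with overlapping ranges.

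The first question was which subunits differ between DR and AL. Gabra2 and Gabra4 were lower on DR, and the other 4 subunits tested did not pass the threshold. Gabra2 fell by 27.7% and Gabra4 fell by 23.2%. edgeR's quasi-likelihood test, adjusted by Benjamini-Hochberg, called 583 of 19052 genes at a threshold of 0.05, which is 3.06% in either direction and 1.74% lower. By unadjusted p under 0.05 it was 18% of genes and the same 2 subunits. Of the 6 subunits tested, 2 were called against that background, a count over a short list. Gabra5 was not tested, since it did not reach the minimum of reads. The median log2 fold change of the 6 subunits was -0.08, against 0.0036 over all genes tested.

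Gabra2 (ENSMUSG00000000560.9) lies on chromosome 5 of GRCm38.p6, 70957597 to 71095849, on the minus strand, and none of its exonic bases are shared with another annotated gene. The AL mice had 90.3, 101.9, 90.1 and 92.7 CPM in replicates 1 to 4. The DR mice had 65.8, 63.1, 69.9 and 72.3 CPM. Every DR mouse lay below every AL mouse, and the highest DR value was at 77.1% of the AL mean. The AL mean was 93.8 ± 5.53 CPM and the DR mean 67.8 ± 4.11 CPM (SD, n = 4 mice per diet), which is -0.47 on the log2 scale (standard error, SE, 0.05, edgeR adjusted p = 0.000507). Of all genes tested, 10.9% had no overlap between DR and AL mice and 5.64% had none while lower on DR, and Gabra2 was the only 1 of the 7 subunits among them. Leaving out each mouse in turn kept the call in all 8 fits, with log2 fold changes from -0.50 to -0.43.

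Gabra4 (ENSMUSG00000029211.11), whose alpha4 subunit can pair with delta outside the synapse, lies 474 kb from Gabra2 on the same strand of chromosome 5, 71569749 to 71658308. The AL mice had 27.5, 34.7, 29.7 and 29.2 CPM in replicates 1 to 4. The DR mice had 21.96, 27.9, 22.1 and 21.2 CPM. DR replicate 2 lay within the range of the AL mice, while the other 3 DR mice lay below every AL mouse. The AL mean was 30.3 ± 3.11 CPM and the DR mean 23.3 ± 3.10 CPM (SD, n = 4 mice per diet), which is -0.38 on the log2 scale (SE 0.09, edgeR adjusted p = 0.0336). This call rested on single mice: leaving out each of the 8 mice in turn kept it in 3 fits, with adjusted p from 0.00593 without DR replicate 2 to 0.104 without AL replicate 2. Of its exonic bases, 0.756% are shared with 1 other annotated gene.

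**Figure D2:**
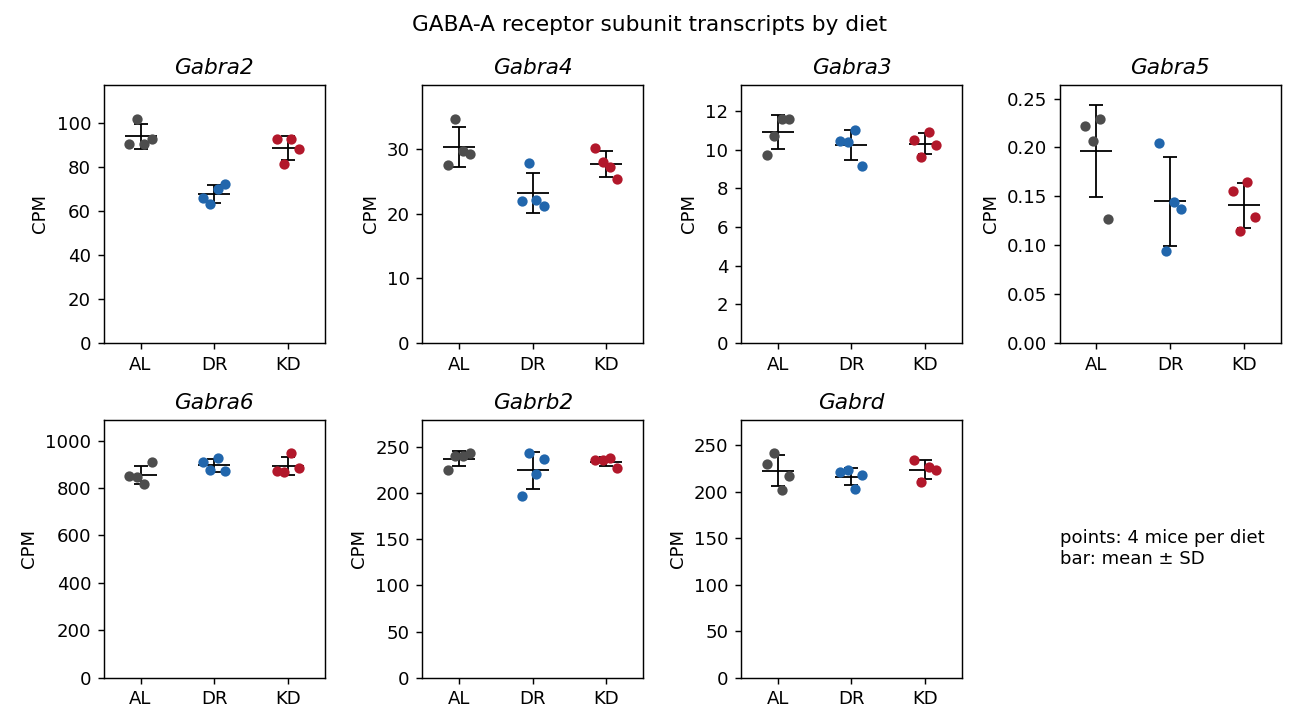
CPM of each subunit gene in the 4 mice of each diet (points) with the mean and SD (bars), on axes that start at 0. The DR mice lie below the AL and KD mice for Gabra2, at 63.1 to 72.3 CPM, and the diets overlap for the other 6 genes.

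Since Gabra2 and Gabra4 were the subunits lower on DR, the 250 bases before their RefSeq starts (build GRCm38.p6) are shown beside those of Gabra6, the most abundant subunit, which did not pass the test. Each runs 5′ to 3′ on the strand of the gene, and capitals mark GGGCGG (the GC box) and CCAAT, searched on both strands. The windows are chr5:71095850-71096099, chr5:71658309-71658558 and chr11:42321073-42321322, all on the minus strand.
Gabra2: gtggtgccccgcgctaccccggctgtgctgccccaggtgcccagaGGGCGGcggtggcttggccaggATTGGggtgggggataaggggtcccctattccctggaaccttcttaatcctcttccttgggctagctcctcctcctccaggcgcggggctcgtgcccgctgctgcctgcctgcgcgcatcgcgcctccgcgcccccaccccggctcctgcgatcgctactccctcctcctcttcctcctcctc
Gabra4: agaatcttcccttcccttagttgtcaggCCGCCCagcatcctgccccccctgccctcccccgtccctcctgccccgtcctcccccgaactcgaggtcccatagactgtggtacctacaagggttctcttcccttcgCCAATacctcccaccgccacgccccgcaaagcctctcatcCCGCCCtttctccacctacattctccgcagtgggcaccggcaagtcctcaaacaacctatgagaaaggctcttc
Gabra6: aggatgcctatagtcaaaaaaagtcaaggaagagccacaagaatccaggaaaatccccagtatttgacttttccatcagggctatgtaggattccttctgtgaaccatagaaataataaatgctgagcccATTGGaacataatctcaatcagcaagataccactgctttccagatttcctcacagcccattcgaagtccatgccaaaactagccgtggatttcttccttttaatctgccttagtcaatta
The Gabra2 window was 70% GC and held 1 GC box and 1 CCAAT, and the Gabra4 window was 61.2% GC and held 2 GC boxes and 1 CCAAT. The Gabra6 window was 40.8% GC, with 1 CCAAT and no GC box. None of the 3 held TATAAA, which 12.4% of 32851 promoter windows of this length hold, against 32.7% for GGGCGG and 33.8% for CCAAT. Ranked by GC content among these windows, Gabra2 lay at percentile 90.8, Gabra4 at 74.8 and Gabra6 at 13.3. Other subunits that were not called varied. Windows of Gabrb2 were 58.8% GC (percentile 68.9, with 1 GC box), 54% and 36.8% GC. Those of Gabra3 were 42.4% and 39.2% GC, and that of the untested Gabra5 was 56.4% GC, all without a GC box. No window of Gabrd was read. The bases after the start matched the beginning of an annotated transcript for Gabra2, Gabra4, Gabra5 and Gabra6, but not for Gabrb2 and Gabra3. These matches describe the letters and say nothing of which factors bind there.

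Gabra2 and Gabra4 share a cluster of subunit genes, so the tested genes around them that encode no GABA-A subunit were counted. Within 1 Mb of the pair, 0 of 6 such genes were called between DR and AL, against 3.06% of all genes. Their log2 fold changes ran from -0.31 (Corin, a protease gene, edgeR adjusted p = 0.163) to 0.01, with a median of -0.02. Their mean levels ran from 1.12 to 23.7 CPM. Gabra6 and Gabrb2 lie 99 kb apart on chromosome 11, and 0 of 8 such genes around them were called, with a median of 0.09. Mean levels there ran from 0.37 to 67.4 CPM. At a share of 3.06%, lists this short are likely to hold no called gene.

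The subunits of the granule cell receptor did not pass the test between DR and AL. Gabra6 (chromosome 11, 42306437 to 42321072, minus strand) was at 849.9, 849, 817 and 909 CPM in AL replicates 1 to 4. In the DR mice it was at 909, 877, 927 and 870.2 CPM. In the KD mice it was at 871, 866, 946 and 883 CPM. The diets overlapped, and the highest and lowest of the 12 values were a KD and an AL mouse. Its log2 fold change on DR was 0.07, with a 95% interval of -0.02 to 0.16 from the standard error (edgeR adjusted p = 0.493), so a fall as large as that of Gabra2 lies outside the interval.

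Gabrd (chromosome 4, 155384980 to 155398112, minus strand), which encodes the delta subunit, ranged from 202 to 241 CPM on AL, from 203 to 223 CPM on DR and from 211 to 235 CPM on KD. Its log2 fold change on DR was -0.04 (95% interval -0.15 to 0.07, edgeR adjusted p = 0.752). Gabrb2 (chromosome 11, 42419757 to 42629028, plus strand), the usual beta partner of many alpha subunits, was at 225, 239.8, 240.04 and 243 CPM in AL replicates 1 to 4. In the DR mice it was at 197, 243, 221 and 237 CPM. DR replicate 1 was the lowest of the 12 libraries, and DR replicate 2 lay at the top of the AL range. The log2 fold change of Gabrb2 was -0.08 (95% interval -0.19 to 0.04, edgeR adjusted p = 0.529).

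Gabra3 (chromosome X, 72432681 to 72656848, minus strand), the gene of another synaptic alpha subunit, ranged from 9.74 to 11.6 CPM on AL and from 9.12 to 10.99 CPM on DR. On the log2 scale DR differed by -0.09 (edgeR adjusted p = 0.641), and the 95% interval of -0.26 to 0.08 is wider than those of the abundant subunits. Gabra5 (chromosome 7, 57407672 to 57510059, minus strand) had 9, 8, 8 and 4 reads in AL replicates 1 to 4, 8, 3, 5 and 5 in the DR replicates and 6, 4, 6 and 5 in the KD replicates. Of its exonic bases, 4.98% are shared with 1 other annotated gene. The mean of Gabra5 was 0.196 CPM on AL, 0.145 CPM on DR and 0.141 CPM on KD. With so few reads Gabra5 was not tested, and no limit of detection was computed.

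The second question was whether the ketogenic diet differs from AL. None of the 6 tested subunits passed, nor did any of 19036 genes (0%) in edgeR's quasi-likelihood test, where 928 genes (4.87%) but none of the subunits had an unadjusted p under 0.05. No overlap was seen for 2.96% of genes and for none of the subunits. DESeq2's Wald test called 10 genes and edgeR's likelihood ratio test 18, with no subunit among them. Gabra2 was at 92.5, 81.1, 92.8 and 88.1 CPM in KD replicates 1 to 4, a mean of 88.6 ± 5.45 CPM (SD, n = 4). KD replicates 1 and 3 lay within the AL range and the other KD mice below it. The log2 fold change of Gabra2 was -0.08, with a 95% interval of -0.18 to 0.02 (edgeR adjusted p = 0.994). Gabra4 was at 30.2, 28.0, 27.3 and 25.3 CPM in the KD mice, a mean of 27.7 ± 2.01 CPM (SD, n = 4) that overlapped AL. Its log2 fold change of -0.13 had a 95% interval of -0.27 to 0.01 (edgeR adjusted p = 0.994). For Gabra6, Gabrb2 and Gabrd the log2 fold changes on KD were 0.06, -0.02 and 0.01, and for Gabra3 it was -0.08. DR and KD are compared here with the same AL mice, so these values stand side by side and are not independent.

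KD against DR tests directly whether the 2 diets differ. Gabra2 was higher on KD, by 0.39 on the log2 scale (SE 0.05, edgeR adjusted p = 0.000693), and every KD mouse lay above every DR mouse. This call too held in all 8 fits that left out a mouse. Of 19087 genes, 4.94% were called and 2.43% were higher on KD, while 11.8% had no overlap and 6.03% had none while higher on KD. Gabra2 was the 1 subunit called of 6. By unadjusted p under 0.05 it was 18.7% of genes and 2 subunits, Gabra2 and Gabra4. Gabra4 had a log2 fold change of 0.25 (95% interval 0.09 to 0.41), with an adjusted p of 0.0943 in edgeR's test, and the diets overlapped through DR replicate 2. Without that mouse its adjusted p was 0.00843, and DESeq2's test also called it. The other 4 subunits had log2 fold changes from -0.01 (Gabra6) to 0.06 (Gabrb2), all with an adjusted p of at least 0.618.

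**Figure D3:**
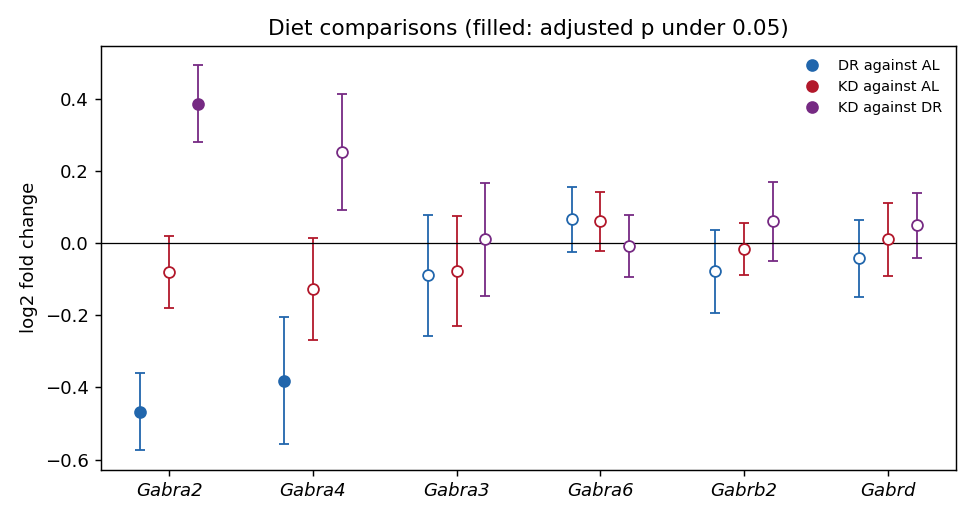
Log2 fold changes of the 6 tested subunit genes in the 3 comparisons (points) with 95% intervals from the standard error (bars), filled where the adjusted p is under 0.05. Gabra2 is filled for DR against AL (-0.47) and for KD against DR (0.39), Gabra4 for DR against AL alone (-0.38).

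Within each library the share of a subunit does not depend on the scaling between libraries. Gabra2 made up 2.56% ± 0.141 of the summed level on AL, 1.83% ± 0.118 on DR and 2.36% ± 0.102 on KD (SD, n = 4 each). The DR mice, at 1.71 to 1.98%, lay below all AL and KD mice. Gabra4 made up 1.04% ± 0.107 on AL, 0.788% ± 0.107 on DR and 0.927% ± 0.0778 on KD (SD, n = 4 each), and the highest DR mouse (0.948%) lay just under the lowest AL mouse (0.950%). For the other 5 subunits the shares of DR and AL mice overlapped.

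In bulk tissue, fewer cells of a type and less RNA per cell cannot be told apart, so markers of the cells that may carry these subunits were read in the same libraries. The 5 markers of Bergmann glia summed to 2174 to 2310 CPM on AL, 1906 to 2058 on DR and 2114 to 2240 on KD, so DR lay below both. As means, DR was at 88.2% of AL for this sum and at 90.0% for the 5 astrocyte markers, against 72.3% for Gabra2. Of the 5 Bergmann glia markers, 2 were called lower on DR, Hopx (log2 fold change -0.47) and the AMPA receptor gene Gria1 (-0.26). Slc1a3, the glial glutamate transporter, and Gdf10 had -0.16 and -0.08 (edgeR adjusted p = 0.0749 and 0.471), and A2m had 0.14 (adjusted p = 0.442). Among the astrocyte markers Aqp4, the water channel of astrocyte endfeet, and Gja1, a gap junction gene, were called lower, at -0.52 and -0.24, and the other 3 were not called. None of these lists had a marker at 0.

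Set against the summed Bergmann glia markers, Gabra2 stood at 4.17% ± 0.218 on AL, 3.42% ± 0.126 on DR and 4.08% ± 0.227 on KD (SD, n = 4 each). The DR mice (3.31 to 3.54%) lay below all AL mice (3.91 to 4.42%) and all KD mice (3.84 to 4.29%). Slc1a3 and Gria1, averaging 1324 and 623 CPM in AL mice, made up most of this sum and fell by 10.5% and 16.6% on DR. Hopx, averaging 79.3 CPM in AL mice, fell by 27.7%, as Gabra2 did. Gdf10 fell by 5.5% and A2m rose by 10.1%, so the result depends on how the markers are weighted. Against the same sum Gabra4 stood at 1.35% ± 0.129, 1.18% ± 0.194 and 1.28% ± 0.110 (SD, n = 4 each), with overlapping ranges. How far the markers account for either gene was not tested. Purkinje cell markers summed to 6654 to 7149 CPM on AL, 5624 to 6477 on DR and 6569 to 6780 on KD. Granule cell markers, which go with the cells known for Gabra6 and Gabrd, summed to 5291 to 5850 CPM on AL, 5463 to 5611 on DR and 5376 to 5643 on KD, with overlap, and 0 of 7 were called between DR and AL. For Golgi cells, which supply GABA to granule cells, 1 of 5 markers was called higher on DR, Lgi2 (0.37 on the log2 scale, edgeR adjusted p = 0.000507), and the other 4 did not pass, among them Slc6a5 at 0.06 and Grm2 at 0.05 (edgeR adjusted p = 0.656 and 0.755). Their sum, of which Lgi2 made up most, was 284 to 299 CPM on DR and 235 to 255 on AL. Over all marker lists 70 entries were tested, and 1 was called higher and 9 lower on DR than on AL, while 11 were called higher and 2 lower on KD than on DR. The 4 markers of oligodendrocyte precursors summed to 37.7 to 47.6 CPM on DR and 47.6 to 59.1 on AL.

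**Figure D4:**
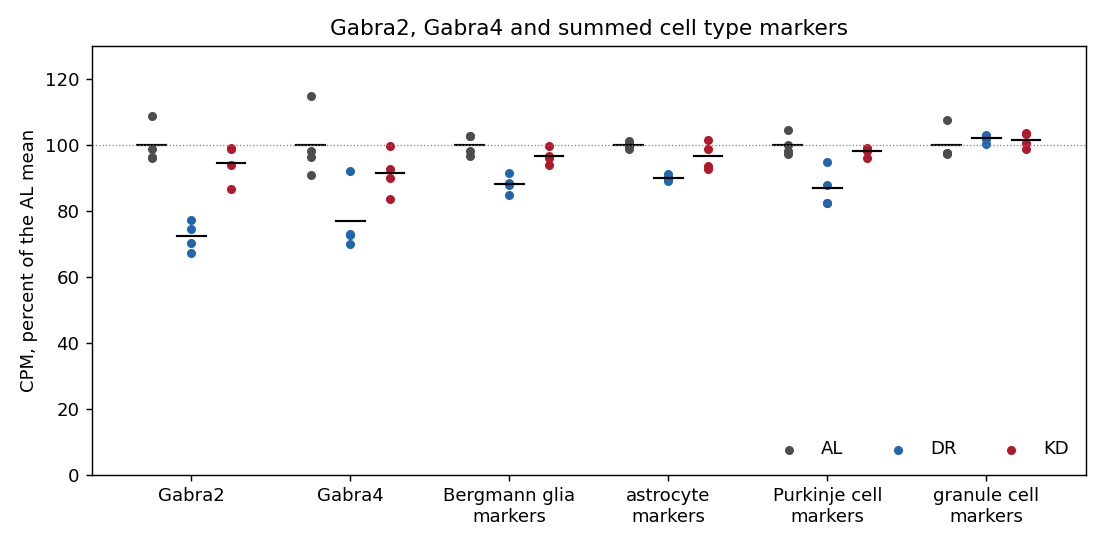
CPM of Gabra2, Gabra4 and the summed markers of 4 cell types in each mouse, as percent of the AL mean (dotted line at 100), with the mean per diet as a bar. DR mice average 72.3% for Gabra2, 88.2% for Bergmann glia markers and 102% for granule cell markers.

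The genes with the most similar pattern over the 12 libraries were taken from 9467 genes that averaged 10 CPM or more. For Gabra2 they were Shisa9, an auxiliary protein of AMPA receptors (Pearson r = 0.977), Col9a2, a collagen gene (0.977), and Arap2 (0.970). For Gabra4 they were Ednrb, an endothelin receptor gene (0.974), Sh2d5 (0.932) and Aqp4 (0.924). For Gabra6 they were Nrip3 (0.861), Ust (0.847) and Usp16 (0.834), the lowest values of any subunit. Gabrb2 went most closely with Kcna1, a potassium channel gene (0.927), Plcxd3 (0.918) and Adcy9 (0.916), but by rank these were 0.629 to 0.657. Gabrd went with Fabp3, a fatty acid binding protein gene (0.935), Atf4 (0.924) and Spin1 (0.919), and Gabra3 with Polk (0.942), Mtpn (0.927) and Znrf2 (0.889). These are the highest of many values in libraries that share diet differences, so they are a description of likeness only. Gabra2 and Gabra4 themselves had r = 0.72 over the 12 libraries but -0.0081 after the mean of each diet was taken off. Both were called lower on DR, and their likeness here lay in the diet means. With 4 mice per diet, a likeness between mice of a diet is not excluded.

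Genes that work with GABA-A receptors or elsewhere in GABA signalling, GABA-B receptor genes among them, were read from a list of 36. Of these, 35 were tested. Between DR and AL 1 of the 35 was called, lower, against 3.06% of all genes, and 28 of the 35 had a log2 fold change below 0, against 49% of all genes. Their median was -0.06. Between KD and AL, and between KD and DR, 0 of 35 were called, with medians of 0.00092 and 0.07. By edgeR's unadjusted p under 0.05, the list held 8 of 35 genes between DR and AL (22.9%, against 18% of all genes), 1 between KD and AL (2.86%, against 4.87%) and 10 between KD and DR (28.6%, against 18.7%). DR and AL mice did not overlap for 5 of the 35 (14.3%, against 10.9% of all genes), namely Kctd12, Nlgn2, Dag1, Slc12a5 and Ubqln1, of which Kctd12 alone was called.

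The gene called was Kctd12, an auxiliary subunit of the GABA-B receptor, the metabotropic receptor for GABA. The AL mice had 76.9, 74.1, 68.4 and 73.5 CPM, and the DR mice 66.5, 57.1, 58.9 and 56.8 CPM, with no overlap. This is -0.29 on the log2 scale (SE 0.06, edgeR adjusted p = 0.0129), and KD mice, at 65.1 to 71.9 CPM, overlapped both.

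For the 7 genes of GABA synthesis, packaging and removal, log2 fold changes on DR ran from -0.11 to -0.01, all below 0 and none called. Gad1, a GABA-synthesising enzyme, averaged 564 CPM in AL mice and 539 CPM in DR mice (edgeR adjusted p = 0.485), and Slc32a1, the vesicular GABA transporter, at 126 and 117 CPM (adjusted p = 0.322). The 8 tested genes listed for the inhibitory synapse, not all of them scaffold proteins, had a median of -0.13. They ran from -0.27 (Mdga1) to 0.01, and none was called. Gphn, which encodes gephyrin, the scaffold that holds GABA-A receptors at the synapse, had -0.02, and Nlgn2, its adhesion partner at inhibitory synapses, had -0.17 (edgeR adjusted p = 0.131). Dag1, which encodes dystroglycan, came closest to the threshold, at -0.18 (edgeR adjusted p = 0.0528). The 15 auxiliary and trafficking genes ran from -0.11 to 0.08 with a median of -0.03, among them Lhfpl4, which brings receptors to the synapse, at -0.05. In the last group, of GABA-B receptor and chloride extrusion genes, the GABA-B receptor genes Gabbr1 and Gabbr2 both had -0.10, and Slc12a5, the chloride exporter that keeps GABA inhibitory, had -0.16 (edgeR adjusted p = 0.131). Kctd16, averaging 0.614 CPM in AL mice and 0.401 in DR mice, had the lowest value of the list, -0.60, with a standard error of 0.28 (edgeR adjusted p = 0.28).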

How the data were processed

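Gene counts were deposited by the authors for each library: unstranded poly(A) reads were trimmed (Trimmomatic 0.39), aligned (STAR 2.7.0f) and counted per gene (featureCounts of Subread 1.6.4), per the labels and the study's methods, on GRCm38.p6. Without strand, reads of overlapping genes cannot be told apart. Symbols came from GENCODE (54723 of 54752 genes).

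For every comparison edgeR was run on the 8 libraries involved, with version 4.0.16 (R 4.3.3), using filterByExpr (minimum count 10, total 15), TMM and the quasi-likelihood test, two-sided, with Benjamini-Hochberg adjustment over all genes and a threshold of 0.05. Levels used 1 TMM scale over the 12 libraries. RPKM used the exon length in the deposited table. The 95% intervals are normal, from the standard error. Replicates were numbered in accession order. Replicate pairs differed by more than counting noise (chi-square per gene 4.95 to 11.55), so none was a repeat deposit. The fit was tested on simulated data.

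The subunits, lists and tests were chosen with earlier results of these data known. The rule named all 7 subunits, called genes of the receptor-related list, the 3 genes most alike in pattern per subunit (mean of at least 10 CPM, Pearson r of log2 CPM with prior count 2, no GABA-A subunit, Gm or Rik names) and markers whose list moved or was near 0. Uncalled genes of the receptor-related list and Corin were named after their values were seen. Alternatives were other scalings, filters, tests (DESeq2 1.42.0), 1 fit of all libraries and leaving out each library. Protein identities were not computed. In the list of 36, 1 symbol (Insyn2a) was not matched.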

Additional observations from a re-analysis of the deposited data

Results flagged for a closer look

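Gabra4 in DR replicate 2 stood apart from the other DR mice, at 27.9 CPM against 21.2 to 22.1 CPM. Gabrb2 in KD replicate 4 was at 227 CPM, against 235.7 to 237.5 CPM in the other KD mice. These were 2 of 21 groups of 4 mice checked for a value far from the rest, of which chance gives about 1 in 20. Gabra2 differed between KD and DR by a log2 fold change of 0.39 in the direct comparison of these diets.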

How the results depend on the processing

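No paired analysis was possible because the labels give no replicate numbers shared between diets. Gabra2 was called between DR and AL and between KD and DR under all 7 alternatives of scaling, filter, test and libraries and in all 8 fits with a mouse left out. Gabra4 was called between DR and AL under the 7 alternatives, with an adjusted p of 4.02e-06 to 0.0431, and lost with AL replicate 2 or 4 or DR replicate 1, 3 or 4 left out (adjusted p up to 0.104). Between DR and AL the 583 genes called became 958 with DESeq2's Wald test, 998 with edgeR's likelihood ratio test and 1258 without a filter on low counts, and 235 to 712 with a mouse left out, with 1 to 2 subunits called. Between KD and AL the 0 genes became 10, 18 and 118 under the same settings and 0 to 6 with a mouse left out, with 0 subunits throughout. Between KD and DR the 942 genes became 1503 without the filter and 467 to 946 with a mouse left out. There 2 subunits were called with DESeq2's Wald test and without the filter, and 1 to 2 with a mouse left out. The cause was not tested. With a mouse left out, subunits whose shares did not overlap numbered 2 to 4 (DR and AL), 0 to 2 (KD and AL) and 1 to 2 (KD and DR), and marker lists 1 to 3 (KD and AL). Near 0 the sign was not stable: Gabra3 between KD and DR was -0.010 with library size alone and -0.042 to 0.046 with a mouse left out, Gabra6 there -0.037 to 0.0092, and Gabrd between KD and AL -0.033 to 0.048 (log2 fold changes). The depth limits Gabra5, with at most 9 reads per library.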
